A study of Mus musculus with 5 samples.

Results

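The replication-dependent histone genes encode the core histones H2A, H2B, H3 and H4 and the linker histone H1 that package newly made DNA. They were taken as every listed gene whose symbol begins with Hist1h, Hist2h, Hist3h or Hist4h, which gave 67 of the 19726 genes listed: 6 for H1, 18 for H2A, 18 for H2B, 12 for H3 and 13 for H4. The RNA came from 5 samples of CD4+ T cells, 2 from MC38 tumors (replicates 2 and 3) and 3 from spleen (replicates 1, 2 and 3), all from mice that were wild-type, of the strain C57/Bl6j and 7 weeks old. MC38 cells are a mouse line of colon carcinoma that can be transplanted, and no transgene or agent is given for either tissue. The libraries were depleted of ribosomal RNA and not selected for poly(A), so transcripts without a poly(A) tail could be read. The sources used here do not say how the cells were isolated or whether replicates were separate mice, so p-values measure only how far these samples spread, and that spread may be technical.

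Replication-dependent histone genes are known for making their mRNA in S phase, when DNA is copied and histone protein is needed in bulk. Their mRNA lacks introns in nearly all cases and ends not in a poly(A) tail but a few bases after a short stem-loop, which is bound by the protein Slbp, and it is degraded when DNA synthesis stops. Some of these genes also give polyadenylated transcripts in cells that have stopped dividing, and replacement histones such as H3f3a, H3f3b and H2afz are made from ordinary polyadenylated mRNA throughout the cell cycle.

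The stem-loop is shown because it is the feature by which these mRNAs are known and because the results below are set against it. In the GENCODE M21 transcripts (GRCm38), a run of 16 bases was searched after the stop codon, on the sense strand, that begins with GG, ends with CC, pairs its first 6 with its last 6 bases with G-T pairs allowed, and has TT at the start of its loop of 4. It was found in 44 of 67 members, beginning 21 to 58 bases after the stop codon. The same search of the first 100 bases after the stop codon found it in 13 of 19890 other protein-coding genes, or 0.0654%. Other genes were counted only if a transcript had at least 100 bases after the stop codon. The 13 include H2afx, the H2A variant of DNA damage signalling, and H2bfm, a gene of the H2B family. Of the 23 members without it, 15 have an annotated transcript that ends within 2 bases of the stop codon, so these models could not hold one. Capitals mark the stem-loop and lower case its flanks, as DNA letters 5′ to 3′ on the strand of the gene.
Hist1h2bj stem-loop, chr13:22043633-22043658, plus strand: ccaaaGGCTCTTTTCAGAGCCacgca
Hist1h3a stem-loop, chr13:23761885-23761910, minus strand: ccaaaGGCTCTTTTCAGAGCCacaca
Hist2h2aa2 stem-loop, chr3:96239779-96239804, minus strand: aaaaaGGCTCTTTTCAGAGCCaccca
Hist3h2a stem-loop, chr11:58955167-58955192, plus strand: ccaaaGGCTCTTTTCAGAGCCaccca
Hist3h2ba stem-loop, chr11:58949344-58949369, plus strand: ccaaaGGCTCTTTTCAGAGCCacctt
Hist1h2bb stem-loop, chr13:23747198-23747223, plus strand: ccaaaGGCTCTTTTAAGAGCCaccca
Hist2h2ac stem-loop, chr3:96220413-96220438, minus strand: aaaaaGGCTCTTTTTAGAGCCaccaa
Hist1h4h stem-loop, chr13:23531453-23531478, plus strand: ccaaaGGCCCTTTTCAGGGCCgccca
Hist1h4b stem-loop, chr13:23757361-23757386, plus strand: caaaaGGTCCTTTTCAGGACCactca
Hist2h4 stem-loop, chr3:96262934-96262959, minus strand: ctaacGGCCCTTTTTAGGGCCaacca
Hist4h4 stem-loop, chr6:136803993-136804018, minus strand: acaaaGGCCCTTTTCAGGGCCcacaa
These 11 sequences include all 6 versions found. The first version, in Hist1h2bj, was shared by 26 members of the types H1, H2A, H2B and H3, and the version of Hist1h2bb by 6 members of H1, H2B and H3. H4 members had 3 versions of their own: that of Hist1h4h in 7 genes, that of Hist1h4b in 2 and that of Hist2h4 in 2. The version of Hist2h2ac was found in that gene alone. Hist3h2a, which had one of the largest rises, and Hist3h2ba, the member called lower, carry the same 16 letters.

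Promoters are shown for members at both ends of the range of change and for the H2B and H4 genes with the highest level. RefSeq sequences (GRCm38.p6) that reach from 250 bases before to 50 bases after the gene start were found for 62 of 67 members, with RefSeq starts up to 1770 bases from the GENCODE starts. Capitals mark matches, on either strand, to the octamer ATTTGCAT, the CCAAT box, TATAAA, the H1 box AAACACA and the H4 element GGTCC; neighbouring matches can share end bases.
Hist1h1a promoter, chr13:23763418-23763717, plus strand: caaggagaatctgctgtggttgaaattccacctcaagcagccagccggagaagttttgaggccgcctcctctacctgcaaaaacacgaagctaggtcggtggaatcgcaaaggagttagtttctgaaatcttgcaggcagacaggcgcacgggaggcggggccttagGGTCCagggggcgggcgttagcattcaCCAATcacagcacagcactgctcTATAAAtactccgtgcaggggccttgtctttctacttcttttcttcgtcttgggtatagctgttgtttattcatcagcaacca
Hist1h2bj promoter, chr13:22042948-22043247, plus strand: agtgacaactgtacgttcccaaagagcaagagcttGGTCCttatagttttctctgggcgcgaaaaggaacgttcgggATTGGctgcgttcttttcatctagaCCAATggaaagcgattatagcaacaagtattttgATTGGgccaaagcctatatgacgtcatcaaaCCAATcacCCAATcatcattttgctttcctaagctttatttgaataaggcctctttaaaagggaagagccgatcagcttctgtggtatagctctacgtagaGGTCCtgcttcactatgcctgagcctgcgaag
Hist2h2bb promoter, chr3:96269450-96269749, plus strand: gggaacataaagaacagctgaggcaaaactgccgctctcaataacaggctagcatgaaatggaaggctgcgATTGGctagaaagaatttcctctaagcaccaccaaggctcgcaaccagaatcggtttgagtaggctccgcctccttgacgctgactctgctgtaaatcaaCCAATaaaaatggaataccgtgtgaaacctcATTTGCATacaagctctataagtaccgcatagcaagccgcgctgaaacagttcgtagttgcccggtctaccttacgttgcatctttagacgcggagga
Hist3h2a promoter, chr11:58954435-58954734, plus strand: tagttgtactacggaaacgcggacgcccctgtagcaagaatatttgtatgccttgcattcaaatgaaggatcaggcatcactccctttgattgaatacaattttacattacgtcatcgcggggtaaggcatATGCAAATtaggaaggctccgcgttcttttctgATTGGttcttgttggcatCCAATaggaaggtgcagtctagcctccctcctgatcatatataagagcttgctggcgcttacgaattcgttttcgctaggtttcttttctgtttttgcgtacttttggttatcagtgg
Hist1h4k promoter, chr13:21750504-21750803, minus strand: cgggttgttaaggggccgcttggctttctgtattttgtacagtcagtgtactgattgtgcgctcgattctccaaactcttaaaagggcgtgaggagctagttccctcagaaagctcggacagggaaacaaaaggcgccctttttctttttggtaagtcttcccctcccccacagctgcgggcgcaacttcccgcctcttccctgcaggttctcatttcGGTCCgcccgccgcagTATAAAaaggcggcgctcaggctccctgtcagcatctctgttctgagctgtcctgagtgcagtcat
Hist3h2ba promoter, chr11:58948661-58948960, plus strand: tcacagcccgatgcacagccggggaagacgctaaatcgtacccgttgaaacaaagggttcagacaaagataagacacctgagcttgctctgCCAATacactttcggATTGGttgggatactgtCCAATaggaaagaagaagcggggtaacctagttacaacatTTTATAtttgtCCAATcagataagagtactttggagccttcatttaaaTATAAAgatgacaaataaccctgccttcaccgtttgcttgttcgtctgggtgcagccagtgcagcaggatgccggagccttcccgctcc
The octamer, which is bound by Oct-1 in H2B promoters, was present in 7 of 18 H2A and 6 of 16 H2B promoters and in no H1, H3 or H4 promoter, against 1.74% of all 32851 promoters in the table. CCAAT was present in 53 of 62 members, including every H1, H2A, H2B and H3 promoter but 3 of 12 H4 promoters, against 37.4% of all promoters. TATAAA was present in 35 members, against 13.6% of all promoters. The H1 box was present in 9 members, 5 of them among the 6 H1 promoters, against 7.18% of all promoters. GGTCC was present in 26 members, 11 of them among the 12 H4 promoters, against 45.5% of all promoters. A match describes letters in these windows and does not show a bound site.

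Expression was given as TPM, the abundance of a transcript relative to all transcripts of its library, corrected for length and scaled to a total of 1000000. Depth is unknown because no counts were used here, so no counting error is given. The listed genes summed to 596116 and 569309 TPM in tumor and to 268987, 359532 and 292344 TPM in spleen, the rest of each library being in transcripts not listed, so a shift of scale between the tissues touches all listed genes. The labelled cell type was checked against marker lists. The 11 T cell identity genes summed to 299.6 and 237 TPM in tumor, against 918, 1202 and 1003 TPM in spleen, and all 11 were called lower. Cd4 was at 26.8 and 27.2 TPM in tumor, against 97.7, 131 and 116 TPM in spleen. The 16 macrophage and monocyte markers summed to 5441 and 5897 TPM in tumor, against 30.7 to 37.4 TPM in spleen, and all 16 were called higher. Epcam, an epithelial marker that would mark carcinoma cells, was at 0.590 and 0.530 TPM in tumor, against 0.784 to 1.47 TPM in spleen. In these bulk samples, fewer T cells and less RNA per T cell cannot be told apart. The macrophage markers and the other marker sums higher in tumor moved in the same direction as the histone genes below. Their part in those results was not tested.

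Summed histone RNA was higher in both tumor libraries than in every spleen library, a description for which no test was made. The sum was 1581 and 1259.8 TPM in tumor, against 528, 553 and 601 TPM in spleen. The means were 1420.3 ± 227 TPM in tumor (SD, n = 2) and 560.5 ± 36.9 TPM in spleen (SD, n = 3), a ratio of 2.53, where the sum over all listed genes had a ratio of 1.90. The histone ratio was 1.31 with the listed genes scaled to equal totals, 1.26 with the 20 most abundant genes left out of those totals and 10.2 with libraries scaled on the T cell identity genes. As deposited, each of the 5 histone types also had its higher sums in tumor.

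H2B, which pairs with H2A in the nucleosome, was the type with the highest sum, at 548 and 406 TPM in tumor, against 170.1, 170.9 and 195 TPM in spleen. H4, which pairs with H3, followed at 394 and 334 TPM in tumor, against 162, 152 and 174 TPM in spleen. H2A summed to 322 and 262 TPM in tumor, against 95.3, 103 and 111 TPM in spleen. These 3 types did not overlap between the tissues. H1, the linker histone that sits on the DNA between nucleosomes, summed to 163 and 149 TPM in tumor, against 60.3, 78.2 and 66.7 TPM in spleen. H3 summed to 153 and 109 TPM in tumor, against 40.1, 49.1 and 53.6 TPM in spleen. The ratio of means was 2.84 for H2A, 2.75 for H3, 2.67 for H2B, 2.28 for H1 and 2.23 for H4, and tumor replicate 2 was above tumor replicate 3 for all 5.

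**Figure D1:**
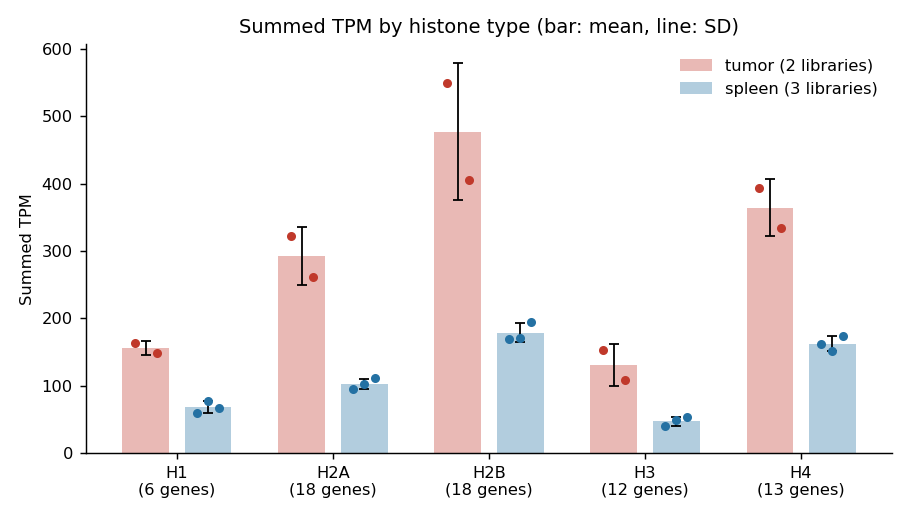
Summed TPM of the replication-dependent histone genes by type, with tumor to the left of spleen; points are libraries, bars are means and lines are SD (n = 2 tumor, n = 3 spleen). In each of the 5 types both tumor points lie above all 3 spleen points, and H2B has the highest sums, 548 and 406 TPM in tumor.

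The share of each type in the histone RNA does not depend on the scale of the library. H2A made up 20.4% and 20.8% of the summed histone TPM in tumor, against 18.1%, 18.5% and 18.5% in spleen, and H4 made up 24.9% and 26.5% in tumor, against 30.7%, 27.5% and 29.0% in spleen. In both cases the tissues did not overlap, H2A being higher and H4 lower in tumor. The shares of H1, H2B and H3 overlapped between the tissues. H2A per H2B was 0.588 and 0.646 in tumor, against 0.560, 0.600 and 0.570 in spleen, which overlapped. The 10 members of highest mean level held 44.1% to 45.2% of the histone TPM in tumor and 46.4% to 46.9% in spleen. Across the 67 members the order of mean levels in tumor followed that in spleen with a Spearman rho of 0.92, given as a description since the members share their libraries and sequence.

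Gene by gene, changes were tested with limma on log2(TPM + 1) over the 12979 genes that averaged 1 TPM or more, with Benjamini-Hochberg adjustment over all of them and calls at an adjusted p below 0.05. Of the 67 members 64 were tested, of which 56 were called higher in tumor, 1 lower and 7 neither, where 40.9% of all tested genes were called higher and 18.1% lower. The median log2 change of the 64 was 1.18, with a range of -0.55 to 2.19, beside a median of 0.23 over all tested genes. In 58 of the 64 both tumor libraries were above all 3 spleen libraries, where 46.6% of tested genes were, and in 2 both were below, where 23.8% of tested genes were. The untested 3, Hist1h1t, Hist1h2aa and Hist1h2ba, are histone genes known from the testis and were listed at 0 to 0.235 TPM in every library. The 7 without a call were Hist1h2ac, Hist1h2ao, Hist2h2ab, Hist2h2ac, Hist2h2be, Hist2h4 and Hist4h4, named here after their values were seen.

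The number of calls depended on how libraries were scaled. With median-ratio scaling 54 members were called higher and 1 lower, with all-gene calls of 37.3% and 21.1%. With the listed genes scaled to equal totals, 25 members were called higher and 5 lower, where 20.2% of all genes were called higher and 51.4% lower. With upper-quartile scaling the counts were 30 and 5 (all genes 23.1% and 49.1%), and with the 20 most abundant genes left out of the totals they were 22 and 7 (all genes 19.7% and 56.8%). With libraries scaled on the T cell identity genes all 64 tested members were called higher, where 94.2% of all genes were called higher and 1.0% lower.

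The scalings moved the histone genes and all genes together. The histone median log2 change was 1.18 as deposited, 1.10 with median ratios, 0.41 with the upper quartile, 0.31 with equal totals, 0.24 without the top 20 genes and 2.98 on T cell identity genes. The all-gene medians were 0.23, 0.16, -0.48, -0.57, -0.63 and 1.92 in the same order. The gap between the histone median and the all-gene median was 0.87 to 1.06 under the 6 scalings. Under all 6, the same 21 members were called higher: Hist1h1a, Hist1h1b, Hist1h2ae, Hist1h2ai, Hist1h2ak, Hist1h2bc, Hist1h2bj, Hist1h2bk, Hist1h2bm, Hist1h2br, Hist1h3a, Hist1h3b, Hist1h4a, Hist1h4b, Hist1h4f, Hist1h4k, Hist2h2aa1, Hist2h2aa2, Hist2h3b, Hist2h3c2 and Hist3h2a.

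**Figure D2:**
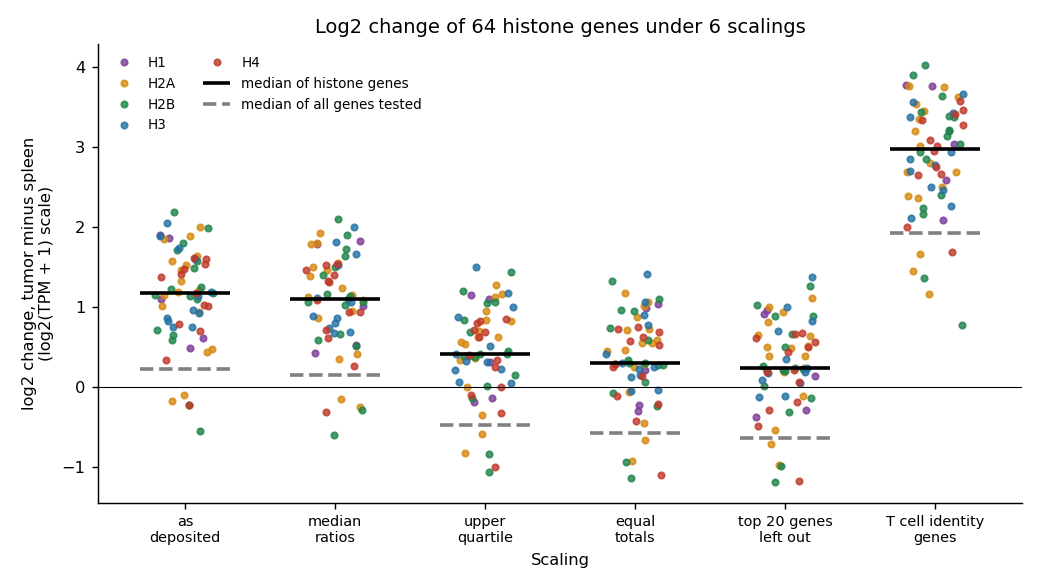
Log2 change (tumor minus spleen, on the log2(TPM + 1) scale) of the 64 tested histone genes under 6 scalings; points are genes coloured by type, the solid line is their median and the dashed line the median of all tested genes. The solid line lies above the dashed line in each column, at 1.18 against 0.23 as deposited and at 0.24 against -0.63 with the top 20 genes left out.

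All 5 tested H1 genes were called higher, with a median log2 change of 1.10. Hist1h1a rose most, with 36.6 and 24.5 TPM in tumor, against 5.96, 7.61 and 8.37 TPM in spleen (log2 change 1.91 ± 0.22 SE, limma adjusted p = 9.1e-11). Hist1h1b was close to it, at 40.3 and 29.4 TPM in tumor, against 7.46, 9.38 and 9.33 TPM in spleen (1.87 ± 0.21, limma adjusted p = 9.4e-11). Both were at least at 24.5 TPM in each tumor library and below 10 TPM in each spleen library. Hist1h1e had 31.6 and 33.5 TPM in tumor, against 12.6, 17.1 and 14.4 TPM in spleen (1.10 ± 0.21, limma adjusted p = 1.1e-05). Hist1h1c was the H1 gene with the highest level, at 50.2 and 57.0 TPM in tumor, against 31.6, 41.0 and 32.1 TPM in spleen. Its change was the second smallest of the tested H1 genes, 0.61 ± 0.21 (limma adjusted p = 0.011), its call was lost with median ratios (0.53) and without spleen replicate 3 (0.56), tumor replicate 2 (0.70) or tumor replicate 3 (0.52), and its sign turned with equal totals (-0.30). The groups of all 4 did not overlap. The remaining tested H1 gene, Hist1h1d, had a log2 change of 0.50 and lost its call with median ratios (0.43). Of the 5, 3 were called higher with median ratios and 2 with equal totals, where Hist1h1e was not (0.21). Without the top 20 genes Hist1h1a and Hist1h1b were called higher, Hist1h1e was not (0.14), and Hist1h1c was called lower (-0.38, limma adjusted p = 0.011).

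Of 17 tested H2A genes 13 were called higher, none lower and 4 neither, with a median log2 change of 1.22. Hist2h2aa2 had the highest level, at 106 and 84.0 TPM in tumor, against 25.1, 30.6 and 33.6 TPM in spleen (1.64 ± 0.21, limma adjusted p = 3e-09). It shares all of its 31-base words with Hist2h2aa1, so the split between the pair is uncertain. Both genes also have all of their words in gene models outside the family and overlap antisense genes, so their sum is uncertain too. It was 120.0 and 96.2 TPM in tumor, against 30.5, 33.0 and 35.2 TPM in spleen. Hist1h2ak had 35.2 and 22.9 TPM in tumor, against 6.24, 7.74 and 6.99 TPM in spleen (1.88 ± 0.21, limma adjusted p = 1.1e-10). Hist3h2a had the largest rise of the type, at 16.1 and 19.3 TPM in tumor, against 3.66, 3.20 and 4.15 TPM in spleen (2.00 ± 0.21, limma adjusted p = 7.4e-12). In these 3 genes the lowest tumor library was over 2 times the highest spleen library. Hist3h2a overlaps Trim17 and the antisense gene Gm44313 and has 32.1% of its words in genes outside the family. Hist1h2ak overlaps the antisense gene Gm44454 and has 55.1% of its words outside the family, so the levels of both are uncertain too. Hist2h2ac, the second highest H2A gene, had 20.3 and 23.7 TPM in tumor, against 15.3, 15.1 and 17.6 TPM in spleen. It was not called (0.44 ± 0.21, limma adjusted p = 0.067) although its groups did not overlap, and was called without spleen replicate 2 (0.40). Without the top 20 genes it was called lower (-0.53, limma adjusted p = 0.012). Of the 17 tested, 8 were called higher and 2 lower with equal totals, and 6 and 3 without the top 20 genes.

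Of 17 tested H2B genes 15 were called higher, 1 lower and 1 neither, with a median log2 change of 1.18. Hist2h2bb had the highest level of all members, at 157 and 107 TPM in tumor, against 53.2, 52.4 and 59.4 TPM in spleen (1.22 ± 0.21, limma adjusted p = 2.3e-06). All of its 31-base words also lie in gene models outside the family, and Gm42743 and the antisense gene Gm20628 overlap it, so its level is uncertain. Hist1h2bn had 65.8 and 36.3 TPM in tumor, against 19.7, 18.9 and 21.4 TPM in spleen (1.25 ± 0.22, limma adjusted p = 3.2e-06), and Hist1h2bb had 63.3 and 40.1 TPM in tumor, against 15.0, 17.1 and 20.2 TPM in spleen (1.49 ± 0.22, limma adjusted p = 6.9e-08). In all 3, tumor replicate 2 was well above tumor replicate 3 and both were above spleen. With equal totals Hist2h2bb (0.30) and Hist1h2bn (0.35) lost their calls, and without the top 20 genes Hist1h2bb did as well (0.51). Of the 17 tested, 6 were called higher and 2 lower with equal totals, and 5 and 2 without the top 20 genes.

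Hist1h2bj had the largest rise of all members on the log2(TPM + 1) scale, at 30.5 and 28.2 TPM in tumor, against 4.52, 5.27 and 7.44 TPM in spleen (2.19 ± 0.21, limma adjusted p = 1.1e-12). Hist3h2ba was the 1 member called lower, at 1.58 and 1.08 TPM in tumor, against 1.96, 3.04 and 2.26 TPM in spleen (-0.55 ± 0.22, limma adjusted p = 0.029). Its groups did not overlap but its level was low, the call was lost when low genes were not filtered out and when spleen replicate 2 (-0.42), spleen replicate 3 (-0.58) or tumor replicate 3 (-0.40) was left out, and with scaling on T cell identity genes its change was 0.77. It lies on chromosome 11 in the same cluster as Hist3h2a, whose change was 2.00.

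All 12 H3 genes were tested and called higher, with a median log2 change of 1.05, but with equal totals, the upper quartile or the top 20 genes left out 4 of the 12 were. Hist1h3i had the highest mean level, at 19.6 and 15.0 TPM in tumor, against 7.29, 10.3 and 10.4 TPM in spleen (0.83 ± 0.21, limma adjusted p = 0.00086), but the call was lost without tumor replicate 2 (0.64) and the sign turned with equal totals (-0.04). Hist2h3b had 25.9 and 15.7 TPM in tumor, against 4.11, 7.02 and 5.17 TPM in spleen (1.74 ± 0.22, limma adjusted p = 2.6e-09), a level made uncertain by an overlapping antisense gene and by gene models outside the family that hold all of its words. Hist1h3a had 18.9 and 15.6 TPM in tumor, against 3.58, 3.52 and 4.60 TPM in spleen (1.90 ± 0.21, limma adjusted p = 4.1e-11). The 3 genes did not overlap between the tissues, with a wider gap for Hist1h3a than for Hist1h3i. Hist2h3c2 had the largest rise of the type, at 8.46 and 4.75 TPM in tumor, against 1.09, 0.428 and 0.882 TPM in spleen (2.05 ± 0.23, limma adjusted p = 7.5e-11). Most of its words lie in its copy Hist2h3c1, all of whose words also lie outside the family, and the pair summed to 10.5 and 8.49 TPM in tumor, against 2.46, 1.58 and 2.10 TPM in spleen.

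Of 13 tested H4 genes 11 were called higher, none lower and 2 neither, with a median log2 change of 1.18. Hist1h4k had the highest level, at 83.1 and 66.4 TPM in tumor, against 20.9, 24.6 and 25.9 TPM in spleen (1.61 ± 0.21, limma adjusted p = 4.2e-09). Hist1h4b had the largest rise of the type, at 27.4 and 19.8 TPM in tumor, against 7.54, 5.45 and 8.07 TPM in spleen (1.62 ± 0.21, limma adjusted p = 6.8e-09). In both genes each tumor library was over 2 times every spleen library. Hist1h4b overlaps the antisense gene 4930558J22Rik. It has 53.1% of its words in genes outside the family and 59.7% in other members, so its level is uncertain. Hist1h4h had 49.3 and 40.0 TPM in tumor, against 24.6, 24.1 and 32.8 TPM in spleen (0.70 ± 0.21, limma adjusted p = 0.0041). Hist1h4m had 38.4 and 39.6 TPM in tumor, against 23.7, 19.2 and 23.4 TPM in spleen (0.80 ± 0.21, limma adjusted p = 0.00096). These groups lay closer together, the call of Hist1h4h was lost without tumor replicate 2 (0.55), and with equal totals the changes were -0.21 for Hist1h4h and -0.11 for Hist1h4m. Hist1h4m shares 91.7% of its words with Hist1h4n, whose change with equal totals was 0.58, so the split between this pair is uncertain. The pair summed to 88.6 and 75.3 TPM in tumor, against 38.2, 32.4 and 39.4 TPM in spleen. Of the 13, 5 were called higher and 1 lower with equal totals or without the top 20 genes. Hist4h4, the only member on chromosome 6, had 12.4 and 18.2 TPM in tumor, against 22.0, 13.2 and 18.8 TPM in spleen, which overlapped (-0.22 ± 0.22, limma adjusted p = 0.4).

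**Figure D3:**
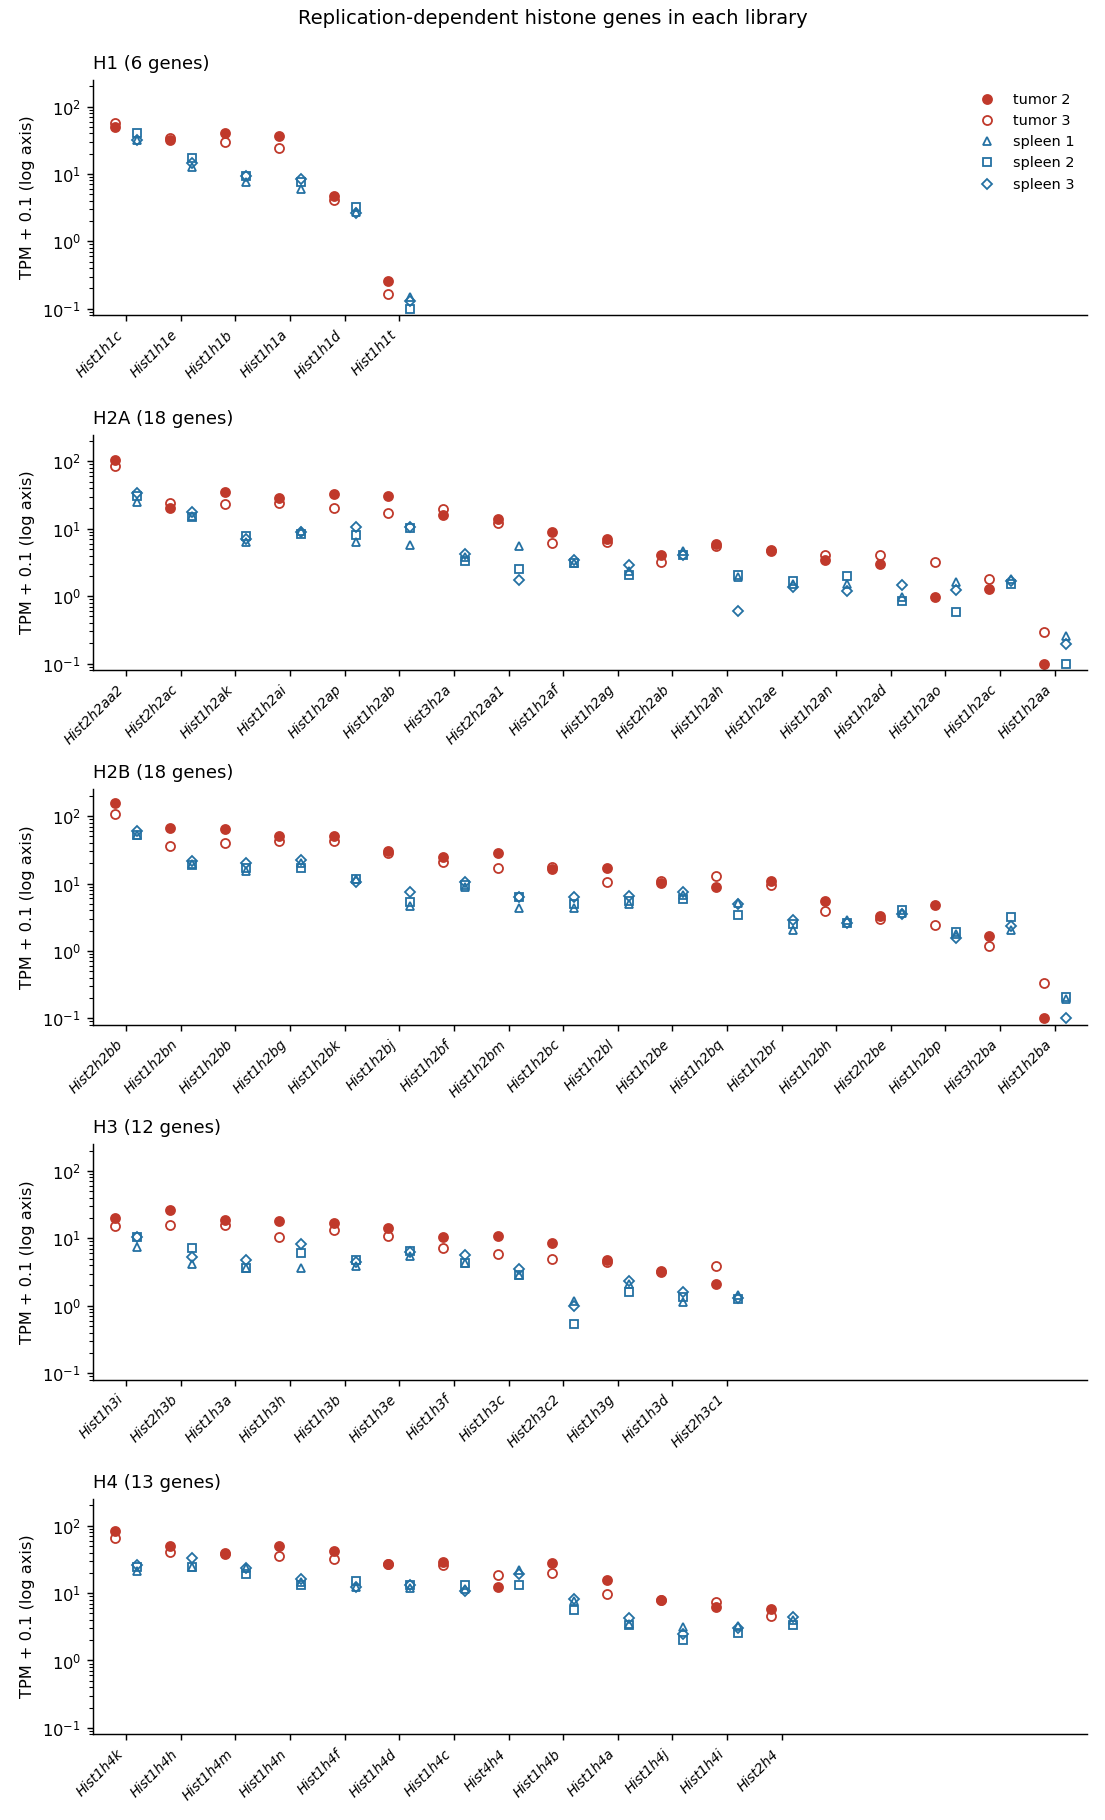
TPM of each of the 67 histone genes in each library on a log axis (0.1 added so that a listed 0 can be drawn), by type and ordered by mean level; red circles on the left of each gene are tumor replicates 2 (filled) and 3 (open), blue symbols on the right are spleen replicates 1, 2 and 3. Tumor points lie above all spleen points for 58 of the 64 tested genes, Hist2h3c2 having the largest ratio of means (8.24) and Hist3h2ba and Hist2h2be lying below.

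Histone RNA was next set beside 2 genes of dividing cells. Pcna, the sliding clamp of DNA polymerase in S phase, had 169 and 142 TPM in tumor, against 48.0, 42.6 and 54.2 TPM in spleen (1.67 ± 0.21, limma adjusted p = 1.4e-09). Mki67, the proliferation antigen Ki-67, had 15.5 and 12.0 TPM in tumor, against 4.37, 5.92 and 5.50 TPM in spleen (1.23 ± 0.21, limma adjusted p = 1.6e-06). Neither gene overlapped between the tissues. Pcna kept its call under every setting tried for it, and Mki67 lost its call with equal totals (0.40) and without the top 20 genes (0.33).

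Ratios within a library do not depend on its scale. Summed histone TPM per Mki67 TPM was 102 and 105 in tumor, against 121, 93.4 and 109 in spleen, so the groups overlapped. Per Pcna TPM the histone sum was 9.34 and 8.87 in tumor, against 11.0, 13.0 and 11.1 in spleen, lower in tumor without overlap. Mki67 in spleen lay below the 95th percentile of olfactory receptor genes given below (16.2, 10.6 and 13.8 TPM). The ratio to Mki67 thus has a low denominator there, while Pcna lay above the percentile in every library. Slbp, the stem-loop binding protein, had 78.3 and 74.0 TPM in tumor, against 23.9, 23.7 and 21.9 TPM in spleen (1.68 ± 0.21, limma adjusted p = 9.3e-10). Per Slbp TPM the histone sum was 20.2 and 17.0 in tumor, against 22.1, 23.3 and 27.4 in spleen, also lower in tumor without overlap. As a share of all listed TPM, the histone genes made up 0.265% and 0.221% in tumor, against 0.196%, 0.154% and 0.205% in spleen.

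The replacement histones had the larger median change. Of 11 replication-independent histone genes 9 were tested, of which 7 were called higher and none lower, with a median log2 change of 1.96. H3f3b, which encodes the replacement form of H3, had 1309 and 1342 TPM in tumor, against 74.9, 117 and 85.2 TPM in spleen (3.85 ± 0.21, limma adjusted p = 1e-21). H1f0, a linker histone of non-dividing cells, had 37.5 and 36.9 TPM in tumor, against 4.38, 7.61 and 4.41 TPM in spleen (2.60 ± 0.22, limma adjusted p = 7.7e-15). The tumor libraries were close to each other and far above spleen for both. H2afv and H2afx, the latter with a stem-loop by the search above, were the 2 not called, with log2 changes of -0.27 and 0.47. With equal totals 5 were called higher and 1, H2afv, lower (-1.12, limma adjusted p = 0.00051), with a median of 1.04.

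Within a library, H3f3a plus H3f3b TPM per replication-dependent H3 TPM was 12.5 and 17.7 in tumor, against 5.30, 5.67 and 4.48 in spleen. H2afz per replication-dependent H2A was 0.611 and 0.698 in tumor, against 0.409, 0.443 and 0.362 in spleen, and H1f0 per replication-dependent H1 was 0.230 and 0.249 in tumor, against 0.0727, 0.0973 and 0.0661 in spleen. All 3 ratios were higher in tumor without overlap. The macrophage and monocyte markers given above moved in the same direction, and their part in these ratios was not tested.

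**Figure D4:**
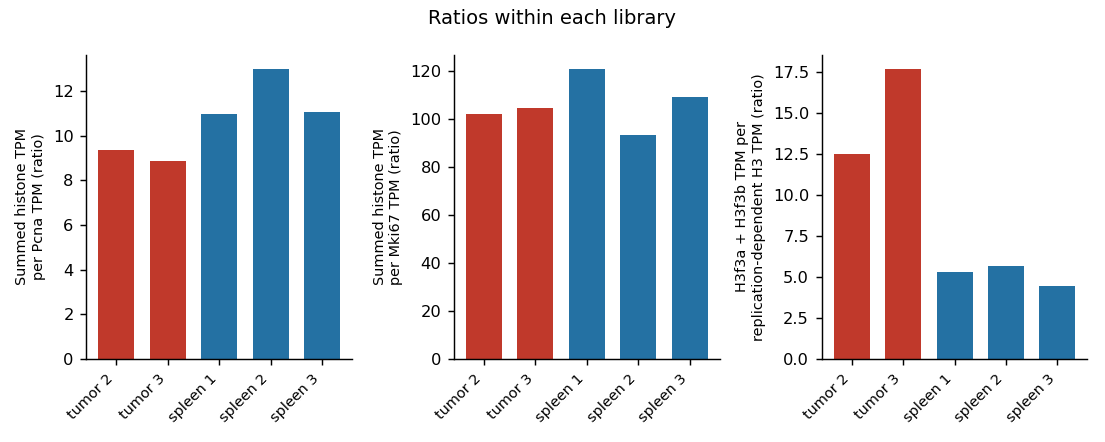
Ratios within each library, with the 2 tumor libraries (red) left of the 3 spleen libraries (blue): summed histone TPM per Pcna TPM, summed histone TPM per Mki67 TPM, and H3f3a plus H3f3b TPM per replication-dependent H3 TPM. The ratio to Pcna is lower in tumor (9.34 and 8.87), the ratio to Mki67 overlaps between the tissues, and the ratio of replacement to replication-dependent H3 is higher in tumor (12.5 and 17.7).

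Genes that make, escort or accompany histone mRNA and protein were counted from lists, beside all-gene shares of 40.9% higher and 18.1% lower as deposited and 20.2% higher and 51.4% lower with equal totals. Of 22 genes of histone mRNA 3′ end processing 7 were called higher, 1 lower and 14 neither, with a median log2 change of 0.17, below the 0.23 over all tested genes. With equal totals 2 were called higher and 14 lower, with a median of -0.68 beside -0.57 over all tested genes. Beside Slbp, Lsm10, a subunit of the U7 particle that cuts histone pre-mRNA, had 12.5 and 12.4 TPM in tumor, against 3.37, 4.98 and 4.42 TPM in spleen (1.37 ± 0.21, limma adjusted p = 1.8e-07). Ncbp1, the large subunit of the nuclear cap-binding complex, was the 1 called lower, at 11.02 and 10.99 TPM in tumor, against 15.1, 18.7 and 17.5 TPM in spleen (-0.59 ± 0.21, limma adjusted p = 0.013). Npat, the coactivator of histone gene transcription, was not called, at 5.47 and 7.00 TPM in tumor, against 7.26, 9.34 and 7.28 TPM in spleen; it was named after its value was seen. With equal totals it was called lower (-1.12, limma adjusted p = 0.00051). On T cell identity genes the change of Ncbp1 was 1.31.

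Of 21 histone chaperone genes 8 were called higher, 4 lower and 9 neither, with a median log2 change of 0.19. With equal totals 2 were called higher and 14 lower, with a median of -0.72. Daxx, which deposits the replacement form of H3 with Atrx, had 222 and 216 TPM in tumor, against 12.4, 20.2 and 16.4 TPM in spleen (3.69 ± 0.21, limma adjusted p = 1.3e-20). Ubn1, a subunit of the HIRA complex, had 52.97 and 52.96 TPM in tumor, against 20.3, 26.0 and 20.8 TPM in spleen (1.22 ± 0.21, limma adjusted p = 1.9e-06), a call lost without the top 20 genes (0.23). Hira itself was lower, at 6.54 and 8.18 TPM in tumor, against 11.8, 17.0 and 12.2 TPM in spleen (-0.80 ± 0.21, limma adjusted p = 0.0012), although its change was 1.05 on T cell identity genes.

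Of 42 S phase genes 21 were called higher, 3 lower and 18 neither, with a median log2 change of 0.46. With equal totals 9 were called higher and 19 lower, with a median of -0.36. Cdt1, which licenses replication origins, had 23.6 and 26.5 TPM in tumor, against 6.18, 5.04 and 5.84 TPM in spleen (1.96 ± 0.21, limma adjusted p = 1.1e-11). Rpa1, the large subunit of the single-stranded DNA binding complex, was lower, at 14.8 and 15.7 TPM in tumor, against 27.2, 38.6 and 28.5 TPM in spleen (-0.98 ± 0.21, limma adjusted p = 8.8e-05), although its change was 0.96 on T cell identity genes.

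Of 21 tested mitosis genes 17 were called higher, none lower and 4 neither, with a median log2 change of 0.76. With equal totals 4 were called higher and 1 lower, with a median of 0.03. Bub1b, a kinase of the spindle checkpoint, had 9.94 and 14.1 TPM in tumor, against 1.98, 1.95 and 3.09 TPM in spleen (1.96 ± 0.22, limma adjusted p = 4.7e-11). Tpx2, a spindle assembly factor, had 7.93 and 6.87 TPM in tumor, against 1.79, 1.49 and 2.83 TPM in spleen (1.49 ± 0.22, limma adjusted p = 6.3e-08). As deposited the median was 1.18 for the histone genes and 1.96 for the replication-independent histones.

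The annotated 3′ ends of the members differ widely, and the changes are given here by that feature. Of the 44 members with a stem-loop, 22 have models holding it that end within 100 bases of it, 3 to 74 bases past it. Among these, Hist1h2bp also has an annotated transcript in which no stem-loop was found. The other 22 run on for 151 to 4884 bases, so their level can also take in reads from longer transcripts. All 22 of the first class were tested, of which 20 were called higher and none lower, with a median log2 change of 1.45. Of 21 tested in the second class 17 were called higher and 1 lower, with a median of 0.87. With equal totals the counts were 12 higher and 0 lower with a median of 0.57 in the first class, and 3 higher and 3 lower with a median of 0.14 in the second. The 21 tested members with no stem-loop found had a median of 1.25. It was 1.22 for the 13 whose model ends within 2 bases of the stop codon. For the 8 whose model goes on it was 1.56, above that of the first class.

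Within types, on the log2(TPM + 1) scale as deposited, the first class had the higher median in the 4 that hold both. The medians were 1.26 against 1.22 for H2A (8 and 3 genes), 1.65 against 0.62 for H2B, 1.60 against 0.87 for H3 and 1.41 against 1.02 for H4. This scale understates the change of low genes in both classes. Hist1h3d and Hist2h3c1 of the second class had ratios of means of 2.46 and 2.31 and changes of 0.87 and 0.75. Hist1h2ad of the first class had a ratio of 3.45 and a change of 1.16. The classes were not compared by ratios of means. For H2A the order turned with equal totals (0.51 against 0.55), the upper quartile (0.60 against 0.63) and the top 20 genes left out (0.45 against 0.49). H1 had no member of the first class. Across the 43 tested members with a stem-loop, the log2 change and the number of bases past it had a Spearman rho of -0.51, a description over genes that share libraries and sequence. Across all 64 tested members, the rho of the log2 change with the length of the longest transcript was weaker, at -0.28. The boundary of 100 bases was chosen after the values were seen. Hist3h2a and Hist2h3c2 run 1643 and 377 bases past the stem-loop and had log2 changes of 2.00 and 2.05, and Hist2h2ac ends 57 bases past it with 0.44. Hist1h2ac and Hist4h4, at -0.10 and -0.22, run on for 2010 and 2445 bases. These 5 were named after their values were seen.

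**Figure D5:**
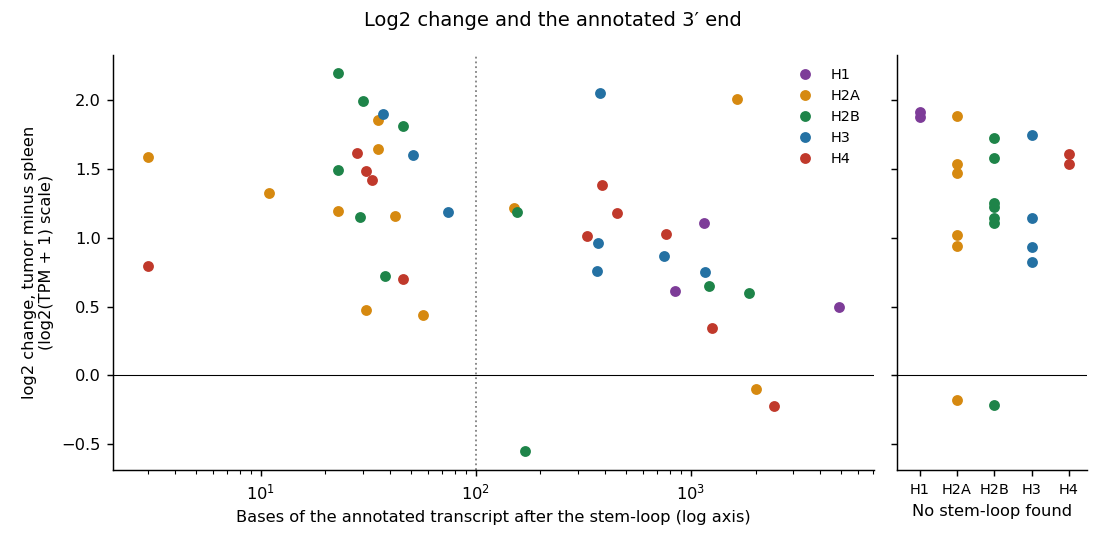
Log2 change (tumor minus spleen, on the log2(TPM + 1) scale) of tested histone genes against the bases of the annotated transcript past the stem-loop on a log axis (left, 43 genes), and by type for 21 genes with no stem-loop found (right); the dotted line marks 100 bases. Members left of the line have a median of 1.45 and those right of it 0.87, with Hist3h2a and Hist2h3c2 high among the long models.

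The members lie in 4 places in GRCm38. The Hist1 cluster holds 54 members within chr13:21715763-23934851, of which 51 were tested, 49 called higher and none lower, with a summed TPM of 1204 and 959.9 in tumor, against 383, 413 and 444 in spleen. The Hist2 cluster holds 10 members within chr3:96219865-96270132, of which 6 were called higher and 4 neither, with a sum of 347 and 261 TPM in tumor, against 118, 120.4 and 131 TPM in spleen. Hist3h2a and Hist3h2ba lie within chr11:58948920-58956830 and Hist4h4 at chr6:136801553-136804415. The ratio of mean sums, tumor over spleen, was 2.62 for Hist1 and 2.47 for Hist2. With equal totals 20 Hist1 members were called higher and 1 lower, and 4 Hist2 members higher and 2 lower.

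H2A and H2B genes often stand back to back with 1 shared stretch between their starts. There were 12 such pairs, with starts 175 to 305 bases apart, and they hold 24 of the 36 H2A and H2B members. In 11 pairs both genes were tested, and in 8 both were called higher. The median absolute difference between the log2 changes within a pair was 0.46. Hist1h2bf and Hist1h2ad changed by 1.15 and 1.16, and the widest pair was Hist1h2ac with -0.10 and Hist1h2bc with 1.58, whose levels were 16.5 and 17.6 TPM in tumor, against 4.30, 4.82 and 6.11 TPM in spleen. The promoter windows of such pairs overlap, so their motifs are not counted independently. Of the 13 octamer promoters 8 belong to such pairs. Among tested H2A and H2B genes, the 11 with the octamer had 9 called higher and none lower with a median log2 change of 1.33, and the 21 without had 18 higher and 1 lower with a median of 1.15. With equal totals the counts were 6 and 1 with the octamer and 7 and 2 without it.

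Sequence shared between members limits values for single genes. The median member had 55.2% of its 31-base words in other members, and 19 members had over 80%. Hist1h4k (86.2%), Hist1h4m (91.7%), Hist1h2bn (88.0%) and Hist1h3i (93.2%) are among them, so their values above carry this limit. Of these 19, 18 were called higher and none lower with a median log2 change of 1.25, and of the 45 tested members with less sharing 38 were called higher and 1 lower with a median of 1.18. With equal totals 9 of the 19 were called higher and none lower, and 16 of the 45 higher and 5 lower. A further limit is that 24 members overlap another annotated gene, 21 of them an antisense gene, and that 7 have over 80% of their words in genes outside the family. Hist1h2ao and Hist1h2ap show the limit: Hist1h2ao had 0.882 and 3.12 TPM in tumor, against 1.51, 0.485 and 1.15 TPM in spleen and overlapped, while the sum of the pair was 33.8 and 23.5 TPM in tumor, against 7.68, 8.40 and 11.5 TPM in spleen and did not.

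Low levels were set against genes that T cells are not known to use. The 95th percentile of 1134 olfactory receptor genes was 7.59 and 10.7 TPM in tumor, against 16.2, 10.6 and 13.8 TPM in spleen. It was exceeded by 46 and 37 of the 67 members in tumor, against 9, 17 and 13 in spleen. Above it in all 5 libraries were Hist1h1c, Hist1h2bg, Hist1h2bn, Hist1h4h, Hist1h4k, Hist1h4m, Hist2h2aa2, Hist2h2bb and Hist4h4. A further 20 were above it in both tumor libraries and in no spleen library, among them Hist1h1a, Hist1h2bj, Hist1h3a, Hist1h4b and Hist3h2a. The same counts were not made over all listed genes. Listed genes summed higher in tumor and the percentile was lowest in tumor replicate 2, so these counts do not single out the histone genes. In all 5 libraries 21 members were at or below the percentile, Hist3h2ba included. Called higher among these 21 were Hist1h1d, Hist1h2ad, Hist1h2ae, Hist1h2ag, Hist1h2ah, Hist1h2an, Hist1h2bh, Hist1h2bp, Hist1h3d, Hist1h3g, Hist1h4i and Hist2h3c1. Hist1h2ae is also among the members called higher under all 6 scalings. Hist2h3c2, with the largest rise of the H3 genes, was above the percentile in tumor replicate 2 alone. Outside the family, Mki67, H1f0, Lsm10, Npat, Cdt1, Bub1b and Tpx2 were below the percentile in every spleen library.

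The tumor libraries differed from each other in the histone genes. Tumor replicate 2 was above tumor replicate 3 in 48 of the 64 tested members, or 75.0%, where 29.0% of all tested genes were, and the median log2 difference was 0.26, beside -0.13 over all tested genes. By type it was higher in 11 of 12 H3, 14 of 17 H2B, 9 of 13 H4, 11 of 17 H2A and 3 of 5 H1 genes. Pcna and Mki67 were also higher in tumor replicate 2, as were the sums of the S phase genes (661 and 629 TPM) and of the mitosis genes (176 and 141 TPM). Single genes went both ways. Of the genes of those lists given above, Tpx2 was higher in tumor replicate 2, and Cdt1, Bub1b and Rpa1 in tumor replicate 3.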

How the data were processed

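RNA from CD4+ T cell samples of tumor (n = 2) and spleen (n = 3) was made into stranded libraries without ribosomal RNA and read in pairs of 75 bp, per the labels' protocols. Each deposited table holds 1 TPM value per gene symbol, as the authors made it, with kallisto, DESeq2 and the build mm10 named in the submitters' processing notes. The annotation, the versions and the use of strand in counting are not given in the sources used here. TPM per library sum to less than 1000000 over the listed genes, and depth is unknown.

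From these values log2(TPM + 1) was tested with limma 3.58.1 in R 4.3.3 (mean-variance trend, two-sided, tissue as the only term) over the 12979 genes that averaged 1 TPM or more, with Benjamini-Hochberg adjustment and calls at an adjusted p below 0.05. With 3 residual and 44.1 prior degrees of freedom, each error comes mostly from other genes at like levels. Changes on this scale understate those of low genes. On simulated libraries the test called 86 of 100 genes changed 2-fold, 100 of 100 changed 4-fold and 14 of 12779 unchanged genes. Their noise was independent between libraries and had the spread of this same fit. The simulation therefore could not test shifts of scale or of cell content. Sums, ratios and medians over members have no test. Stem-loops, shared words and gene positions came from GENCODE M21 and promoters from RefSeq; all 67 members were found in the annotation.

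The 3 members of highest mean level of each type, the called member with the largest rise or fall, Pcna, Mki67, Slbp, marker genes and, for each other list, the 2 called genes of smallest p in the leading direction and the 1 in the other were named. Of these, 1 gene is not reported here. The members and lists were chosen with earlier results of these data known. Alternatives were 5 other scalings, pseudocounts of 0.1 and 10, no filter, a minimum of 5 TPM, no trend, an adjusted p below 0.01, a test against a 2-fold change, a replicate block and each library left out.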

Additional observations from a re-analysis of the deposited data

How the results depend on the processing

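The number of histone genes called higher, 56, was 25 with equal totals, 30 with the upper quartile, 22 with the top 20 genes left out and 19 when tested against a 2-fold change. It was 49 to 57 with 1 library left out. The number called lower, 1, was 5, 5 and 7 under those 3 scalings. It was 0 with scaling on T cell identity genes, with no filter, with a minimum of 5 TPM, at an adjusted p below 0.01 and against a 2-fold change, and 0 to 1 with 1 library left out. The ratio of summed histone TPM, 2.53, was 1.31 with equal totals, 1.44 with the upper quartile, 1.26 without the top 20 genes and 10.2 on T cell identity genes, and 2.25 to 2.82 with 1 library left out. Mki67 changed by 0.40 with equal totals and 0.33 without the top 20 genes, without a call.

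Signs turned for 6 named members. With equal totals, the upper quartile and the top 20 genes left out, the log2 changes were -0.30, -0.19 and -0.38 for Hist1h1c, -0.21, -0.10 and -0.28 for Hist1h4h, and -0.45, -0.34 and -0.53 for Hist2h2ac. With equal totals and the top 20 genes left out they were -0.039 and -0.11 for Hist1h3i and -0.11 and -0.19 for Hist1h4m, genes that share most of their words with other members. On T cell identity genes Hist3h2ba changed by 0.77. Of these, Hist1h1c and Hist2h2ac were called lower without the top 20 genes. The cause was not tested. Without a tumor library, the lone tumor sample is assumed to vary like spleen.

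Replicate numbers 2 and 3 occur in both tissues, but nothing says that they mark a shared mouse, and the deviations of same-numbered libraries correlated at 0.20 and 0.07 across genes, beside 0.19 for tumor replicate 3 with spleen replicate 1. With 2 tumor libraries the deviations mirror each other, so each value returns with its sign turned for the other tumor library. These values cannot tell whether mice were shared. With the replicate number as a block 55 members were called higher and 1 lower, and of the 21 named members only Hist1h1c lost its call (0.55). No all-gene share of calls is given for this fit. Depth is unknown, so no counting limit is given.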
